A study of Mus with 4 samples.

Results

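The nuclear-encoded subunits of the respiratory chain were examined in RNA sequencing of the mouse cochlea. Members were the listed genes whose symbols follow the naming of the subunits of complexes I to V (Nduf with a, b, c, s or v and a number, Sdha to Sdhd, the Uqcr genes, Cyc1, Cox4 to Cox8 and Atp5), which gave 81 of the 21230 listed genes. They fell into 35 genes of complex I, 4 of complex II, 9 of complex III, 16 of complex IV and 17 of complex V. Ndufa4 carries a complex I name but was counted with complex IV, where its protein is known to sit. The rule used names only and no measured value.

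The respiratory chain lies in the inner mitochondrial membrane. Complexes I and II feed electrons from NADH and succinate into ubiquinone, complex III passes them to cytochrome c, complex IV reduces oxygen, and complex V uses the resulting proton gradient to make ATP. Complex II is encoded wholly in the nucleus, while the other complexes combine nuclear subunits with a few encoded in mitochondrial DNA. In the cochlea this supply of ATP serves the ion pumps of the stria vascularis and the calcium handling and vesicle cycle of hair cells.

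All mice carried Otof c.1315 C > T (p.R439X), an early stop codon in the gene of otoferlin, the calcium sensor of the inner hair cell synapse. The 2 untreated libraries came from such mice without RESTART, and the 2 RESTARTv3 libraries from such mice given RESTART v3, a small nucleolar guide RNA and a DKC1 isoform, which make pseudouridine at the stop codon, and a near-cognate tRNA used to read it through. Per the study's methods, RESTART v3 was carried by the viral vector AAVie and injected through the posterior semicircular canal of the left ear at 4 weeks of age. The age at collection, the sex, and whether animals were pooled are not given in the sources used here for these libraries. No injected control is among these libraries, so effects of surgery, of the vector and of its cargo cannot be told apart. The untreated columns bear the same name and are called A and B, letters without order. The study's methods call the RNA sequencing replicates independent, but neither they nor the labels say that these libraries came from separate animals, and p-values then measure only the spread between these libraries.

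Levels are in RPKM, reads per kilobase of gene span (introns included) and scaled to the library total. Where the annotated span did not give whole reads, a span was solved from the values themselves. On this basis whole reads could be recovered for all 81 members. They amounted to 119617 reads in untreated A, 187545 in untreated B, 212762 in RESTARTv3 replicate 1 and 91130 in RESTARTv3 replicate 2, or 0.605%, 0.588%, 0.557% and 0.559% of the reads in listed genes. Listed genes held 49.9%, 56.2%, 53.7% and 26.7% of the library totals, so that replicate 2 was low for most genes on the deposited scale. For this reason values are also given after median-of-ratios scaling, which divides each library by 1 factor (0.931 for A, 1.32 for B, 1.30 for replicate 1 and 0.636 for replicate 2).

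No gene in the table was at 0 in any library, so cell type markers are described by level. Of the cochlear markers, 3 of 10 for hair cells, 6 of 8 for the stria vascularis and 4 of 8 for spiral ganglion neurons averaged at least 1 RPKM. Untreated A stood apart from the other 3 libraries. After scaling, A was the highest or the lowest of the 4 libraries for 77 of 81 members (95.1%) and for 85.8% of the 5076 tested genes. On the deposited scale the sums of some marker lists differed between A and B. That of the 8 spiral ganglion markers did not, at 63.1 RPKM in both. Single genes among them differed in both directions, with Nefh at 24.3 in A and 15.4 in B, and Nefl at 19.6 and 24.2. The 5 listed neutrophil markers of 7 summed to 230, 367, 545 and 151 in A, B and RESTARTv3 replicates 1 and 2. The 8 bone markers summed to 920 RPKM in A and 281 in B, and to 227 and 141 in the RESTARTv3 replicates, with Col1a1 at 638 RPKM in A and 134 in B, whereas Ibsp was at 11.7 in A and 38.3 in B. The 4 listed erythroid markers of 7 summed to 105 in A, 391 in B, 446 in replicate 1 and 224 in replicate 2. Among them Hbb-bs was at 75.9 in A and 318 in B, and Alas2 at 4.51 and 5.59. The part of these markers in the results on the subunits was not tested. In bulk tissue fewer cells of a type and less RNA per cell cannot be told apart. For this reason scaled differences are also given without A, where B alone stands for the untreated group and is assumed to vary like the RESTARTv3 libraries.

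None of the subunit genes passed the test between RESTARTv3 and untreated cochleae. Of the 81 members, 69 had a mean of at least 1 RPKM and were tested, and limma called 0 of them, against 0% of the 5076 tested genes at an adjusted p of 0.05. At an unadjusted p under 0.05 the same fit gave 0 members and 72 of all tested genes, and limma voom on recovered reads of all 81 members also called 0. The smallest unadjusted limma p of a member was 0.093, that of Uqcr11, and the adjusted p of every tested member was 0.998. The 12 members that left through low values were Ndufs5, Ndufa10, Ndufa9, Ndufa12, Ndufa1, Ndufs4, Uqcrc2, Cox7a1, Cox7b, Cox4i2, Atp5g2 and Atp5l.

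The median log2 difference of RESTARTv3 minus untreated over the tested members was -0.42 on the deposited scale, beside -0.41 over all tested genes. After scaling both medians stood at -0.20. By complex the scaled medians were -0.32 for complex I, -0.09 for II, -0.55 for III, -0.19 for IV and -0.07 for V. Their signs depended on the scaling. With factors taken from the tested genes the medians were -0.07, 0.12, -0.30, 0.05 and 0.19 in the same order. With median-of-ratios scaling without A they were -0.07, -0.03, -0.05, -0.07 and 0.00, and -0.04 over all 69 tested members. Of the 69 tested members, 58 were below 0 as deposited, 45 with median-of-ratios scaling, 36 with quantile scaling and 34 with factors taken from the tested genes. Over all 5076 tested genes these counts were 3865, 3174, 2566 and 2452.

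In 31 of the 69 tested members (44.9%) both RESTARTv3 libraries lay below both untreated libraries on the deposited scale, where this held for 34.9% of all tested genes. No member lay above in both, against 0.768% of tested genes. After scaling, 28 members (40.6%) lay below, against 28% of tested genes, and again none above, against 8.27%. The excess of members below depended on the scaling, and with quantile scaling their share did not exceed that of tested genes. Without A, 43 lay below B in both RESTARTv3 libraries after scaling and 2 above, beside 40.2% and 17.4% of tested genes. Of these 28 members, A was the highest library for 26 and exceeded B at least 2-fold for 10. On the log2 scale, A itself ranged from 1.80 below to 2.29 above B over the 81 members.

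**Figure D1:**
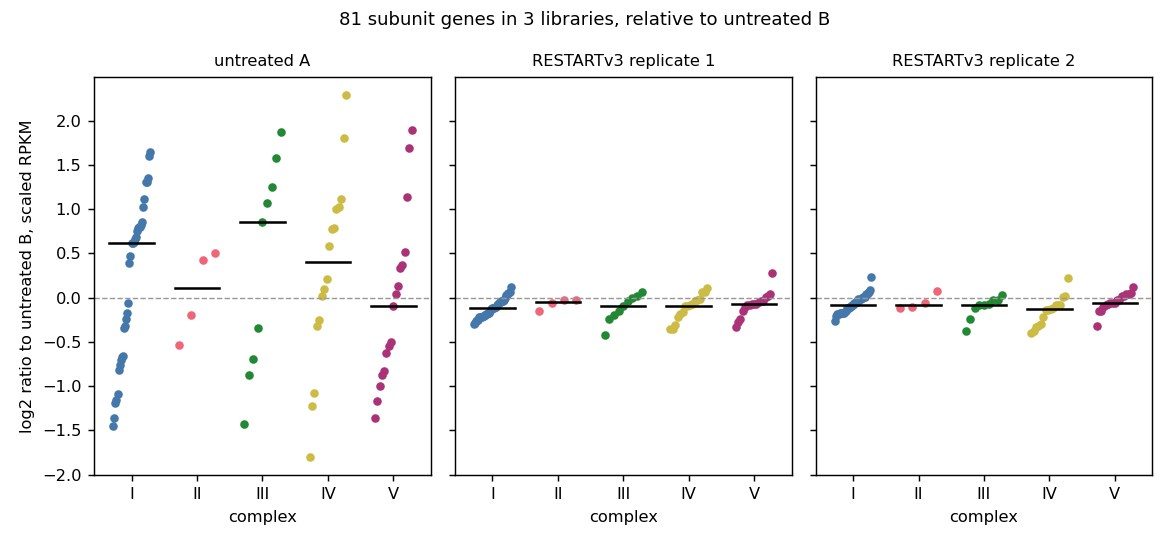
Log2 ratio of scaled RPKM to untreated B for each of the 81 subunit genes (points, sorted within each complex) in untreated A, RESTARTv3 replicate 1 and RESTARTv3 replicate 2, with the median of each complex as a bar. Untreated A spreads from -1.80 to 2.29, while the RESTARTv3 replicates lie between -0.42 and 0.28.

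The RESTARTv3 libraries and untreated B lay close together. The SD of the scaled log2 ratio over the 81 members was 0.12 between B and replicate 1, 0.12 between B and replicate 2 and 0.16 between the replicates, while it was 0.97, 0.96 and 0.97 between A and B, replicate 1 and replicate 2. Among genes with at least 200 reads in every library the SD between B and replicates 1 and 2 was 0.12 and 0.10 for 68 members, beside 0.27 and 0.34 for all 8493 such genes. These are descriptions of single libraries, with no test. No subunit gene differed from B by more than 0.42 in either RESTARTv3 library after scaling.

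Relative to B, A held subunit genes both higher and lower. It exceeded B more than 2-fold for 18 members and fell short more than 2-fold for 11, out of 46 higher and 35 lower in all. Over all 5076 tested genes these counts were 1811, 691, 3326 and 1750. The members farthest above were Cox4i2, Atp5d, Uqcr11 and Cox8a, with scaled log2 differences of 2.29, 1.89, 1.87 and 1.81, and the farthest below were Cox7b, Ndufs4, Uqcrb and Ndufa5, with -1.80, -1.45, -1.43 and -1.36. These 8 were chosen after their values were seen. Shorter genes tended to be higher in A. Over the 81 members the Spearman correlation of the A to B difference with the annotated gene span was -0.25. It was -0.34 over the 4953 tested genes with a span. For the difference of RESTARTv3 replicate 1 from B the same correlations were 0.14 and 0.31, of the opposite sign. Each is a description over genes that share 2 libraries.

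Complex I, the NADH dehydrogenase, has nuclear-encoded core subunits, which carry its flavin and iron-sulfur clusters, and many accessory subunits. Its 29 tested members ran from -1.18 to 0.15 in the deposited fit, 25 of them below 0 and 4 above, and 19 and 10 after scaling.

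Ndufs6, an accessory subunit that binds zinc, had the highest mean level of complex I and was listed at 42.7 RPKM in A, 34.9 in B, 30.9 in RESTARTv3 replicate 1 and 14.8 in replicate 2. Ndufa11, an accessory subunit of the membrane arm, was at 50.0, 22.6, 20.7 and 10.2 RPKM in the same order, and Ndufb11, another membrane arm subunit, at 30.4, 25.5, 21.8 and 12.3 RPKM. In all 3 genes both RESTARTv3 libraries were below both untreated ones, with replicate 2 the lowest and A the highest. The log2 difference of Ndufa11 was -1.18 (SE 0.91, limma adjusted p = 0.998), and after scaling -0.90 with A and -0.06 without it.

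The levels of some members were set by another gene's span. The deposited RPKM of Ndufa11 was divided by the span of Ndufa11b, of 667 bases rather than 6487, and with its own span it would be 5.14, 2.33, 2.13 and 1.05 RPKM. The same was found for Ndufa1 (span of Ndufa10), Sdha (Sdhaf4), Cox7b (Cox7b2) and Atp5j (Atp5j2). With their own spans Ndufa1 and Cox7b would have means of 1.89 and 4.96 RPKM and would have been tested. Ndufb11, Ndufb4 and Cox7a2 had spans of 1024, 493 and 4613 bases where 2294, 6767 and 16182 are annotated, so their levels against other genes, and their recovered reads, are uncertain. Smaller departures were found for other members, such as Ndufc1 (5146 bases against 3477 annotated) and Cox5a (16699 against 15100). In all, 66 of the 81 members were within 1% of the annotated span. Ratios of RPKM between libraries do not depend on the span, but the pseudocount makes the fitted differences depend on it, and the deposited log2 difference of Ndufa11 went from -1.18 to -0.98 with its own span. Ndufa11, Ndufb4 and Ndufs5 also have near-identical listed copies with which reads may be shared.

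Ndufs8, a core subunit that carries iron-sulfur clusters, was at 9.74, 5.43, 4.44 and 2.29 RPKM in A, B and RESTARTv3 replicates 1 and 2. Ndufa13, an accessory subunit also known as GRIM-19, was at 11.2, 6.44, 5.32 and 2.90 RPKM. Both were lower in each RESTARTv3 library than in each untreated one, with deposited log2 differences of -1.07 (SE 0.82) for Ndufs8 and -1.02 (SE 0.83) for Ndufa13 that were smaller than 2 standard errors. After scaling, Ndufs8 was at 10.5 in A and at 4.11, 3.43 and 3.61 in B and the replicates, and without A the scaled log2 differences were -0.17 for Ndufs8 and -0.13 for Ndufa13.

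Complex II, the succinate dehydrogenase, had scaled log2 differences of A from B between -0.54 and 0.50, the narrowest range of the complexes and that of the fewest genes. Its flavoprotein Sdha was at 7.68, 15.8, 14.9 and 7.29 RPKM in A, B and replicates 1 and 2, and its iron-sulfur subunit Sdhb at 1.69, 1.79, 1.72 and 0.798. With its own span Sdha would be at 2.66, 5.49, 5.15 and 2.53 RPKM. The membrane anchors Sdhc and Sdhd were at 1.70, 1.70, 1.51 and 0.861 RPKM and at 2.67, 4.35, 4.19 and 1.94 RPKM. All 4 genes were lowest in replicate 2 on the deposited scale, and the groups overlapped for Sdha, Sdhb and Sdhd but not for Sdhc. After scaling Sdhb did not overlap, at 1.82 and 1.36 against 1.33 and 1.26, and Sdhc did, so this pattern changed gene with the scaling. The deposited log2 differences were -0.08 (SE 0.87) for Sdha, -0.40 (SE 0.70) for Sdhb, -0.41 (SE 0.70) for Sdhc and -0.21 (SE 0.78) for Sdhd. Without A the scaled differences of all 4 lay between -0.03 and 0.00.

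Complex III, the cytochrome bc1 complex, had the lowest median of the 5 with all libraries, and 8 of its 9 genes were tested. Its catalytic subunit Cyc1, cytochrome c1, was at 15.4, 9.17, 9.37 and 4.07 RPKM in A, B and replicates 1 and 2. The small subunit Uqcrq was at 12.4, 8.40, 7.72 and 3.83 RPKM, and the hinge protein Uqcrh at 4.61, 10.6, 7.79 and 4.31 RPKM. Cyc1 and Uqcrq were highest in A, whereas Uqcrh was highest in B and lowest in replicate 2, with A close above it. After scaling Uqcrh was lowest in A. Without A the scaled log2 differences were 0.00 for Cyc1, -0.05 for Uqcrq and -0.28 for Uqcrh.

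Uqcr11, a small subunit of complex III, had the smallest unadjusted p of any member. It was at 12.6 RPKM in A, 4.88 in B, 4.07 in replicate 1 and 1.82 in replicate 2, a log2 difference of -1.37 (SE 0.81, limma adjusted p = 0.998). The scaled difference was -1.13 with A and -0.24 without it, where B alone stands for the untreated group. The core protein Uqcrc1 was at 7.50, 3.58, 3.42 and 1.62 RPKM, again with A far above the rest, and its scaled difference went from -0.76 to -0.03 without A. Uqcrb, a subunit near the ubiquinone site, ran the other way at 1.45, 5.54, 4.88 and 2.62 RPKM, lowest in A, with a deposited log2 difference of 0.26 (SE 0.79) and a scaled one without A of -0.05.

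**Figure D2:**
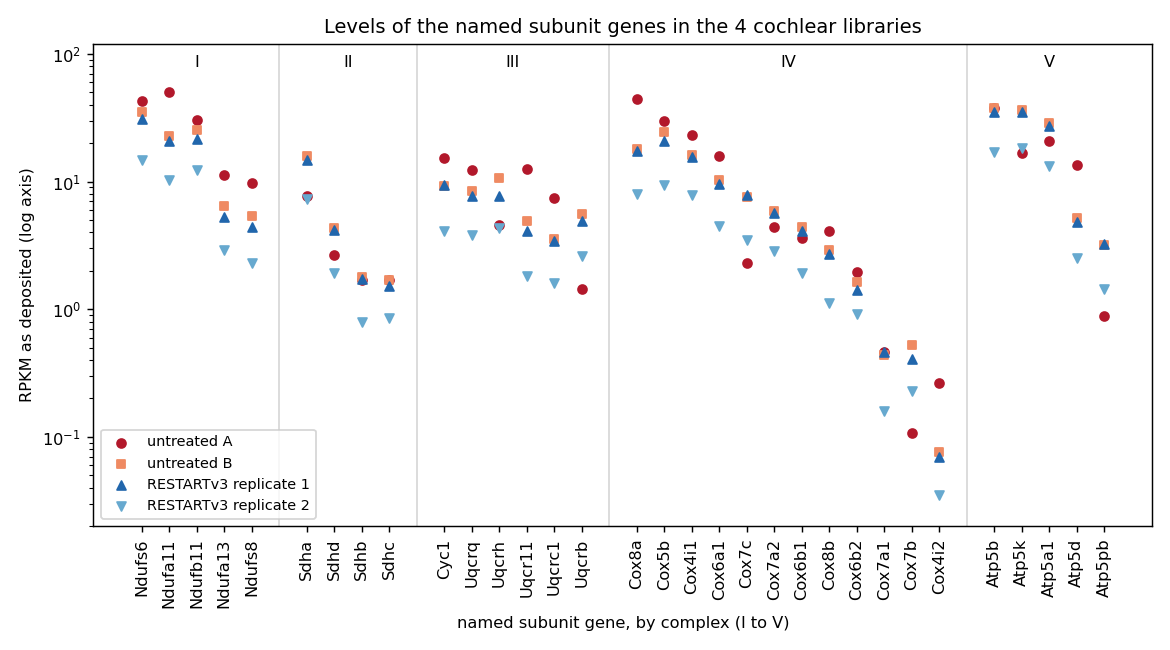
Deposited RPKM (log axis) of each named subunit gene in the 4 libraries, 1 point per library, ordered by complex and mean level. In Cox8a untreated A is at 44.4 RPKM and the other libraries between 7.995 and 17.98, while in Atp5pb A is lowest at 0.883.

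Complex IV, cytochrome c oxidase, had 13 of 16 genes tested. The ubiquitous isoform Cox8a was at 44.4, 17.98, 17.3 and 7.995 RPKM in A, B and RESTARTv3 replicates 1 and 2, the zinc-binding Cox5b at 29.9, 24.6, 20.8 and 9.41, and Cox4i1, the largest nuclear subunit, at 23.2, 16.1, 15.5 and 7.83. All 3 were highest in A and lowest in replicate 2, and their groups did not overlap on this scale. After scaling Cox8a was at 47.7 in A and at 13.6, 13.3 and 12.6 in the others, a log2 difference of -0.96 with A and -0.04 without it. The scaled difference of Cox5b was -0.65 with A and -0.24 without, and its 2 RESTARTv3 libraries at 16.0 and 14.8 stayed below B at 18.6. The groups of Cox4i1 overlapped after scaling.

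Cox7c, a small subunit of the membrane part, was lowest in A at 2.31 RPKM and stood at 7.64 in B, 7.85 in replicate 1 and 3.46 in replicate 2. Its log2 difference was the highest of the 69 tested members at 0.27 (SE 0.81) and became 0.02 after scaling without A. Cox7c and Cox8a lay on opposite sides of the other libraries in A.

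Several complex IV subunits exist as pairs of a widely expressed isoform and one known from muscle, lung or testis. The isoforms Cox6a2, Cox7b2 and Cox8c were not analysed here. Of their partners, Cox6a1 was at 15.7, 10.4, 9.51 and 4.53 RPKM and Cox7b at 0.107, 0.528, 0.405 and 0.230 RPKM. With its own span Cox7b would be at 1.67, 8.24, 6.32 and 3.59 RPKM. Among the 4 pairs with both genes listed, the log2 ratio of Cox4i2, the lung isoform, to Cox4i1 was -6.46 in A and -7.73, -7.80 and -7.82 in B and replicates 1 and 2. The log2 ratio of the heart and muscle isoform Cox8b to Cox8a was -3.45 in A and -2.64, -2.67 and -2.85 in the others. In both pairs A stood off from the remaining 3 libraries in these ratios, taken without a pseudocount. For Cox4i2 this did not hold with a pseudocount of 0.1. There A was at -6.00 and replicate 2 at -5.88, beside -6.53 in B and -6.52 in replicate 1. Cox4i2 rested on 113, 47, 54 and 23 reads, and the difference of its ratio between the groups, -0.71, turned to 0.0633 with a pseudocount of 0.1.

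The ratio of the testis isoform Cox6b2 to Cox6b1 was -0.86, -1.43, -1.53 and -1.08 on the log2 scale, and that of the muscle isoform Cox7a1 to Cox7a2 was -3.25, -3.75, -3.62 and -4.17. Here the groups overlapped, and Cox7a1 rested on at most 61 reads. The level of the Cox7a1 to Cox7a2 ratio is as uncertain as the span of Cox7a2. Cox6b2 was at 1.97, 1.64, 1.41 and 0.918 RPKM and Cox6b1 at 3.59, 4.40, 4.07 and 1.94 RPKM. Cox8b and Cox7a1 were listed beside a low level of muscle markers: the 11 listed skeletal muscle markers of 13 summed to 3.16 RPKM in A, 1.50 in B, 1.77 in replicate 1 and 0.512 in replicate 2. Their part in the isoform ratios was not tested.

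**Figure D3:**
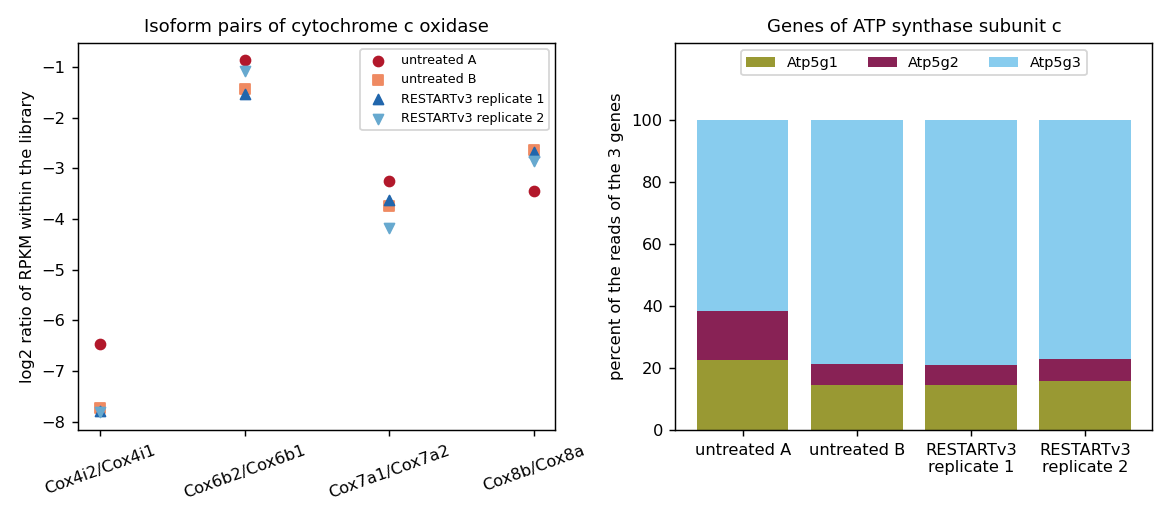
Left, log2 ratio of RPKM of each tissue isoform to its widely expressed partner within each library. Right, percent of the summed reads of Atp5g1, Atp5g2 and Atp5g3 that each gene held per library, with Atp5g3 at 61.5% in untreated A and 77.2% to 78.9% in the other libraries.

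Complex V, the ATP synthase, had 15 of 17 genes tested. The catalytic beta subunit Atp5b was at 38.0, 37.7, 35.2 and 17.0 RPKM in A, B and replicates 1 and 2, and the alpha subunit Atp5a1 at 20.9, 28.8, 27.5 and 13.3. Atp5k, subunit e of the membrane part that joins the enzyme into dimers, was at 16.8, 36.7, 35.2 and 18.3. On the deposited scale Atp5b was nearly equal in A and B, whereas Atp5a1 and Atp5k were lower in A than in B. After scaling Atp5b was at 40.9 in A and 28.5 in B, and Atp5a1 at 22.5 and 21.8. The scaled log2 difference without A was -0.05 for Atp5b, -0.02 for Atp5a1 and 0.04 for Atp5k.

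Atp5d and Atp5pb differed from B in opposite directions in A. Atp5d, the delta subunit of the central stalk, was at 13.6, 5.198, 4.85 and 2.53 RPKM, and Atp5pb, subunit b of the peripheral stalk, at 0.883, 3.22, 3.24 and 1.44. Their deposited log2 differences were -1.15 (SE 0.83) for Atp5d and 0.25 (SE 0.74) for Atp5pb, and both were 0.00 after scaling without A. In B and the RESTARTv3 libraries Atp5d stood at 3.94, 3.74 and 3.98 after scaling and Atp5pb at 2.43, 2.50 and 2.26.

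Subunit c of the membrane rotor is encoded by Atp5g1, Atp5g2 and Atp5g3, whose proteins differ in the import sequence but give the same mature peptide. Atp5g3 held 61.5% of their reads in A (95% Wilson interval 59.4 to 63.5, of 2202 reads), 78.7% in B (77.3 to 80.1, of 3198), 78.9% in replicate 1 (77.6 to 80.2, of 3960) and 77.2% in replicate 2 (75.1 to 79.2, of 1624). Atp5g2 held 15.8%, 6.88%, 6.59% and 6.90% in the same order. The intervals, which cover counting error only, overlapped among B and both RESTARTv3 replicates, and A lay outside all of them for both genes.

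The shares of the complexes among the reads of all members showed the same split of libraries. Complex I held 39.1% in A and 34.6%, 34.1% and 34.5% in B and replicates 1 and 2. Complex V held 27.2% in A and 31.9%, 32.6% and 32.7% in the others, and complex II 5.35% against 7.71%, 7.99% and 7.91%. The shares of B and the RESTARTv3 libraries stayed within 1 percentage point of each other in these 3 complexes.

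**Figure D4:**
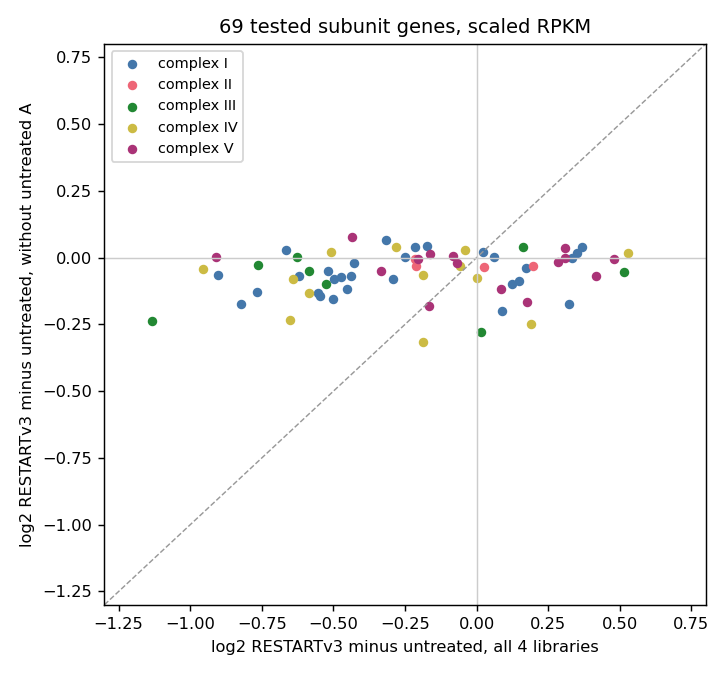
Log2 difference of RESTARTv3 minus untreated on scaled RPKM for the 69 tested subunit genes, from all 4 libraries (horizontal) and without untreated A (vertical), coloured by complex, with the line of equality dashed. The values run from -1.13 to 0.53 with A and from -0.31 to 0.08 without it.

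Without A, 48 of the 69 tested members were below 0 and 21 above after scaling, beside 2682 below and 2394 above over all tested genes, and limma called 0 members and 0 of 5076 genes (0 and 127 at an unadjusted p under 0.05). Without B, when A alone stood for the untreated group and was assumed to vary like the RESTARTv3 libraries, the same scaled fit called 33 of 69 members (47.8%), 22 lower and 11 higher, against 46.6% of all tested genes. In that scaled fit the share of members called was near that of all genes. With limma voom, which took in genes averaging at least 10 reads, the share of members was higher than that of all genes. On recovered reads without B, limma voom called 50 of 81 members, against 47% of 18448 genes.

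No gene of the pathways around the chain passed the test. Assembly factors of complex I (15 of 17 listed, 5 tested), of complexes II, III and V (16 of 17, 4 tested) and of complex IV (22 of 24, 7 tested) had 0 limma calls in either direction, with scaled medians of -0.08, -0.31 and -0.22. The citric acid cycle (16 of 16, 10 tested), import and carrier proteins (15 of 15, 10 tested) and regulators of mitochondrial biogenesis (12 of 12, 4 tested) also had 0 calls, with scaled medians of -0.09, -0.02 and -0.15. Without A all 6 medians lay between -0.11 and 0.02.

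Among the assembly factors, Dmac1 of complex I was at 6.40, 8.44, 8.45 and 3.81 RPKM in A, B and replicates 1 and 2, Uqcc3 of complex III at 6.72, 9.37, 9.11 and 3.78, and Coa3 of complex IV at 11.0, 9.54, 10.6 and 4.82. All were lowest in replicate 2 on this scale. Idh3b of the citric acid cycle was at 6.61, 8.53, 7.55 and 3.61 RPKM and Slc25a4, the ADP/ATP carrier that exports the ATP made by complex V, at 7.98, 11.8, 10.3 and 5.21. Among the regulators of biogenesis, Yy1 had the highest mean level and was at 1.49, 2.53, 2.55 and 1.10 RPKM. Esrra, a nuclear receptor that acts on genes of the chain, was at 2.07, 1.17, 1.05 and 0.461.

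Of the 14 listed electron carrier genes of 16, 2 were tested and 0 called. Cytochrome c itself, Cycs, was at 1.27 RPKM in A and at 5.97, 5.66 and 2.85 in B and replicates 1 and 2. It was lowest in A, as was Uqcrb, while Cyc1, its partner in complex III, was highest in A.

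The subunits encoded in mitochondrial DNA (8 of 13 listed, all tested, 0 called) were lower in A than in B for all 8 genes after scaling. Cytochrome b, CYTB, the mitochondrially encoded subunit of complex III, was at 804 RPKM in A, 2635 in B, 2219 in RESTARTv3 replicate 1 and 1254 in replicate 2. ND4 of complex I, which had the highest mean of these genes, was at 1974, 4419, 3828 and 2082 RPKM. ND1 of complex I was at 600.0, 1703, 1464 and 906 RPKM. For each read of a nuclear-encoded subunit there were 1.47 reads of these 8 genes in A, 3.65 in B, 3.57 in replicate 1 and 4.03 in replicate 2. B and the RESTARTv3 libraries were close in this ratio, and A was lower by more than their spread.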

How the data were processed

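The authors deposited RPKM for 4 libraries. Per the study's methods and the submitters' processing notes, ribosomal RNA was depleted, stranded libraries carried molecular identifiers, and read 2 was trimmed (cutadapt 4.2), freed of duplicates and of identifiers (UMI-tools 1.0.0), aligned to GRCm39 (STAR 2.7.10b), filtered (SAMtools 1.14) and counted (HTSeq 1.14). Genes were to be removed where replicates differed more than 2-fold, whereas reads within a group differed up to 8-fold in the table. The table left 0 columns of per-sample values unused.

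Reads were recovered as RPKM × span × library total, with totals of 39650172 and 56739609 reads for untreated A and B and 71144247 and 61040077 for RESTARTv3 replicates 1 and 2. At the annotated span 11590 of the 21230 genes came out whole within 0.001. For the rest the span was solved from the gene's own RPKM values so that its reads were whole. That all genes came out whole is therefore no check on the recovery. Spans were compared with RefSeq (GRCm38.p6), used for names and lengths only.

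limma 3.58.1 in R 4.3.3 (trend, 2-sided, Benjamini-Hochberg at 0.05) was fitted to log2(RPKM + 0.5) over genes averaging at least 1 RPKM. Fold changes on this scale understate low genes. An exact permutation test of 2 against 2 cannot go below p = 0.333. Alternatives changed the pseudocount (0.1, 1), filter, scaling, trend, model (limma voom, mean of at least 10 reads) and libraries. Own-span values, factors from tested genes and voom without each library were added after seeing the data.

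Named members were the 3 highest of each complex, the 3 of smallest p in each direction, the 6 of largest scaled difference in each direction among members whose groups did not overlap, complex II, and the isoform pairs, with the highest genes of each pathway list. Members and lists were chosen with earlier results of these data known. No sequences are printed.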

Additional observations from a re-analysis of the deposited data

How the results depend on the processing

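No paired analysis was possible because the untreated columns carry no replicate numbers. The count of called members was 0 with a pseudocount of 0.1 or 1, without the filter, with median-of-ratios or quantile scaling, without the trend, with limma voom on recovered reads, with own spans, and with factors from the tested genes. Leaving out 1 library gave 0 to 50 called members: 33 on the scaled values (46.6% of all genes tested) and 50 with limma voom (47%), both without untreated B, and 0 in the other fits. The median change, -0.42, kept its sign in all but 1 of these settings, with factors from the tested genes giving 0.05, and leaving out 1 library gave -0.83 to -0.04. With no filter the members stood at -0.37 beside -0.03 for all genes, and with limma voom at -0.20 beside 0.00, so the closeness to all genes held only among genes of at least 1 RPKM. Members lower in both RESTARTv3 libraries numbered 31. With quantile scaling 12 were lower and 2 higher (18.7% and 10% of tested genes), with factors from the tested genes 2 were higher (9.26%), and without 1 library the counts were 31 to 62 lower and 0 to 32 higher, with deposited values giving 62 lower without untreated A (58.7% of tested genes) and 53 when RESTARTv3 replicate 1 was left out (68.8%), and 25 (scaled, 31.1%) and 32 (voom, 45.6%) higher without untreated B. The isoform difference of Cox4i2 to Cox4i1 was -0.71 and became 0.0633 and 0.52 with pseudocounts of 0.1 and 0.5, and that of Cox7a1 to Cox7a2 went from -0.40 to 0.0375 with 0.5. Of 29 named members tested, 15 kept their direction in all 21 settings. Reads per member and library ran from 18 to 18738, so the lowest members carry large counting error.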
